A study of Mus musculus with 6 samples.

Results

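Semaphorins, plexins and neuropilins are a guidance system of ligands and receptors, and 10 of their genes were followed here in macrophages that lack *Aif1*, which encodes the calcium- and actin-binding protein AIF1. The members were taken by name: the semaphorins *Sema4a*, *Sema4b*, *Sema4d* and *Sema7a*, the plexins *Plxna1*, *Plxnb2*, *Plxnc1* and *Plxnd1*, and the neuropilins *Nrp1* and *Nrp2*, which are 10 of the 47729 genes with deposited counts and 10 of 31 genes of the family that were examined. RNA-seq was performed on immortalized bone marrow-derived macrophages (BMMs) in 3 *Aif1*-/- and 3 WT libraries. The *Aif1*-/- cells came from mice deleted for *Aif1* and the WT cells from mice with the intact gene, both on the C57BL/6J background. Both groups were grown from marrow of male mice aged 8 weeks, carried the SV40 large T antigen that had immortalized them, were cultured in CSF-1 at 120 ng/ml and were at passages 3 to 5, with no other stimulus stated. A whole-animal deletion of this kind cannot tell a role in the mature macrophage from one earlier in its development, and cultures held with CSF-1 and a viral oncogene lack the neighbouring cells that a tissue macrophage has. The libraries of a genotype are described as coming from independent animals, but it is not stated whether each was a separately immortalized line. The p-values therefore measure only how far these 6 samples spread, which may be technical.

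Plexins are the main receptors of the semaphorins. Each plexin carries an intracellular GTPase-activating domain that acts on small Ras-family GTPases, and the plexins bind Rac1 and Rnd proteins, so that a bound semaphorin changes integrin adhesion and the actin cytoskeleton. Neuropilins have a short intracellular tail and act as coreceptors: with A-type plexins they bind the secreted class 3 semaphorins, and with VEGF receptors they bind VEGF. Class 4 semaphorins are transmembrane proteins, Sema7a is held in the membrane by a lipid anchor, and it and several class 4 members are known as immune semaphorins that act between macrophages, dendritic cells and lymphocytes.

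Of the 10 members, 9 passed the filter on low counts. In *Aif1*-/- BMMs 2 of them were higher (*Sema4d* and *Plxnc1*), 3 were lower (*Sema4b*, *Plxna1* and *Plxnd1*) and 4 did not pass the test (*Sema4a*, *Plxnb2*, *Nrp1* and *Nrp2*), at an adjusted p under 0.05 from edgeR's quasi-likelihood test across all genes. Of all 17406 genes tested, 18.6% were called, 8.04% as higher and 10.5% as lower. The median log2 fold change (*Aif1*-/- minus WT) was 0.00308 over the 9 tested members and −0.00354 over all tested genes. For 7 of the 9 the normalized counts of the genotypes did not overlap, against 35.7% of all genes tested. Together the members took 0.462% to 0.464% of the gene counts in *Aif1*-/- libraries and 0.491% to 0.518% in WT libraries.

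The sequences of 4 promoters are shown first, those of the called members that have an entry in the RefSeq promoter set (GRCm38.p6), because these are the genes whose counts differed between the genotypes. Each window runs from 250 bases before to 50 bases after an annotated start, 5′ to 3′ on the strand of the gene. For a gene with several starts the most upstream one in this set is printed. Capitals mark matches on either strand to 5 motifs: the GC box GGGCGG bound by Sp1, the PU box GAGGAA bound by PU.1, the interferon-response core GAAANNGAA, the E-box CACGTG and the AP-1 site TGANTCA.
Sema4b, chr7:80186620-80186919, plus strand: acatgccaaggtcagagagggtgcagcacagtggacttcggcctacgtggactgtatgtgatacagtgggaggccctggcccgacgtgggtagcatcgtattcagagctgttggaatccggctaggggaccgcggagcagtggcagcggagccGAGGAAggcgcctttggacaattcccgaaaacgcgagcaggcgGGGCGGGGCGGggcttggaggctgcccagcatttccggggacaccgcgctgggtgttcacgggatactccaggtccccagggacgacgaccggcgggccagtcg
Sema4d, chr13:51756634-51756933, minus strand: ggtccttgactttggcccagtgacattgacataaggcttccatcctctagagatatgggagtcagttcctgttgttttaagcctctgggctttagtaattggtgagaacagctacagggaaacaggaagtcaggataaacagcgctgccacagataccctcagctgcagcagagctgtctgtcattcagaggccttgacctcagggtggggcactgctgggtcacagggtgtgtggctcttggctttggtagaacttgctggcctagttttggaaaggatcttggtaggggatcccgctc
Plxnc1, chr10:94944796-94945095, minus strand: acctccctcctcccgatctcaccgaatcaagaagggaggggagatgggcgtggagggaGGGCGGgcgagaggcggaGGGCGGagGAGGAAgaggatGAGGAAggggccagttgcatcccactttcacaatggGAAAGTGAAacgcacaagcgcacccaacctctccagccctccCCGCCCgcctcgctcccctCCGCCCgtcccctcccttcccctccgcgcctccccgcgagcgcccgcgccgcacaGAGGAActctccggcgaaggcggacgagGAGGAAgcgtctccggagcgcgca
Plxnd1, chr6:115994956-115995255, minus strand: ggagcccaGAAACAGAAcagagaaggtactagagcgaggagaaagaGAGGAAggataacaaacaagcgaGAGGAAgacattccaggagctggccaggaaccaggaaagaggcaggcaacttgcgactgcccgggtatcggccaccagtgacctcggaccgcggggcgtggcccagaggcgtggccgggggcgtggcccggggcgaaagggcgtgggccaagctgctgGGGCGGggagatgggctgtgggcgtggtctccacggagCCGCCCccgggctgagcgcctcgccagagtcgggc

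The printed *Plxnc1* window held 4 GC boxes, 4 PU boxes and 1 interferon-response core, and the *Plxnd1* window held 2, 2 and 1 of them, although *Plxnc1* was higher and *Plxnd1* lower in *Aif1*-/- BMMs. The *Sema4b* window held 1 PU box and 2 GC boxes that overlap by 1 base. None of the 5 motifs is in the printed *Sema4d* window, and each of its downstream windows held 1 match, an AP-1 site at the start at 51748810 and a GC box at the start at 51739446. The printed *Sema4d* start, at 51756683, lies inside the gene, whose annotated 5′ end is at 51793747. No window in the set covers that end, so its motifs were not examined. Of the 10 members 9 had 1 or more windows, 16 in all. *Plxna1* has no entry. The GC box was found in 13 of these 16 windows, the PU box in 7, the interferon-response core in 2, the E-box in 1 and the AP-1 site in 1. Of all 32851 windows in the set, 35.66% held the GC box, 28.28% the PU box, 8.56% the interferon-response core, 7.15% the E-box and 7.808% the AP-1 site. A match is a description of the letters and not a bound site.

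The deposited values were raw counts, and the counts assigned to genes summed to 17707986 to 26486393 in *Aif1*-/- libraries and 23253869 to 29314253 in WT libraries. The targeted gene *Aif1* had raw counts of 4, 4 and 1 in *Aif1*-/- libraries, against 220, 157 and 239 in WT libraries (replicates 1, 2 and 3, the order used throughout). Macrophage markers were present at high counts in every library, and of 10 on a list 6 were higher and 2 lower in *Aif1*-/- BMMs, with a summed normalized count of 130472 to 132846 in *Aif1*-/- and 93155 to 112763 in WT libraries. Of all genes tested 8.04% were higher and 10.5% lower. Lists of markers of 10 other kinds of cell were low or absent except for the platelet genes *Pf4* and *Treml1*. No gene of the granulocyte, B cell, fibroblast or mast cell lists passed the filter, with at most 15 raw counts of any of them in a library, and *Mpo*, *Elane*, *Dcn* and *Cpa3* were at 0 throughout. The dendritic cell, osteoclast, T and NK cell and endothelial lists had 2, 1, 1 and 2 tested genes, none of them called, with at most 62 raw counts of any of their genes in a library. Among these, *Ccr7*, *Calcr*, *Cd3e* and *Emcn* were at 0 in all 6 libraries, the dendritic cell gene *Xcr1* did not overlap between the genotypes (log2 fold change 1.18, edgeR adjusted p = 0.0782), and the endothelial gene *Tie1* had 0 raw counts in each *Aif1*-/- library and 7, 8 and 35 in WT libraries. Of 4 tested platelet markers 3 (*Pf4*, *Ppbp* and *Treml1*) were higher in *Aif1*-/- BMMs, with a summed normalized count of the list of 2000 to 2094 in *Aif1*-/- and 932 to 1049 in WT libraries. *Pf4* made up most of this sum (means 1745 and 892), and *Ppbp* had at most 25 raw counts in a library. The tested gene *Itga2b* had 5 to 20 raw counts and was not called (log2 fold change −0.49). *Gp9* had 2 raw counts in *Aif1*-/- replicate 1 and 0 elsewhere, and *Gp1bb* had 0 throughout. The neuronal tubulin *Tubb3* was lower, and the neuron and glia list summed to 57.3 to 80.3 in *Aif1*-/- and 90.8 to 136 in WT libraries. Their part in the results was not tested. The WT libraries differed from each other more than the *Aif1*-/- libraries did. Counted reads matched to no gene were 32.4%, 40.4% and 25.5% in WT libraries, against 33.6% to 35.7% in *Aif1*-/- libraries. Correlations of log2 library-scaled counts between replicates were 0.977 to 0.988 in WT and 0.992 to 0.994 in *Aif1*-/- pairs. With any 1 of the WT replicates left out, the same numbers of members were called, 2 higher and 3 lower. In bulk RNA, fewer cells that express a gene and less of its RNA per cell cannot be told apart.

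**Figure D1:**
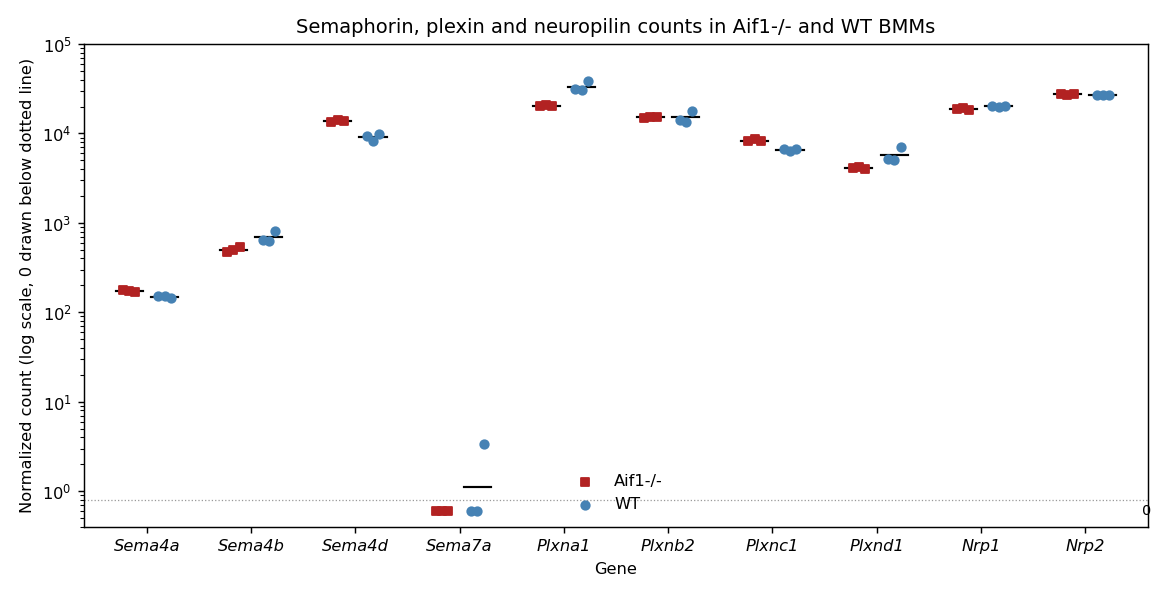
Normalized count (vertical axis, log scale, counts scaled to the mean library) of the 10 members (horizontal axis) in each *Aif1*-/- library (squares, left) and WT library (circles, right), with a bar at the mean. *Sema4d* and *Plxnc1* lie higher and *Sema4b*, *Plxna1* and *Plxnd1* lower in *Aif1*-/- BMMs, and *Sema7a* is at 0 in all but 1 library.

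*Sema4d* (ENSMUSG00000021451, chromosome 13 of GRCm38, 51685529 to 51793747), also known as CD100, encodes a transmembrane semaphorin that is shed from immune cells and that binds plexins B1 and B2 and, on lymphoid cells, CD72. Its normalized counts, which are raw counts scaled to the mean library, were 13527, 13983 and 13708 in *Aif1*-/- libraries, against 9474, 8236 and 9909 in WT libraries. Every *Aif1*-/- library lay above every WT library. The mean was 13739 ± 229 in *Aif1*-/- and 9206 ± 868 in WT BMMs (SD, n = 3 each), with a log2 fold change of 0.58 (standard error 0.08, edgeR adjusted p = 0.000426), or 1.49-fold. *Sema4d* was called as higher in all 14 alternative analyses.

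*Sema4b* (ENSMUSG00000030539, chromosome 7, 80186841 to 80226527) encodes a transmembrane semaphorin of the same class. It had normalized counts of 474, 494 and 537 in *Aif1*-/- libraries, against 652, 634 and 818 in WT libraries. The genotypes did not overlap, and WT replicate 3 was the highest library. The mean was 502 ± 32.2 in *Aif1*-/- and 701 ± 102 in WT BMMs (SD, n = 3 each), with a log2 fold change of −0.48 (standard error 0.12, edgeR adjusted p = 0.0153). The size of the difference rested in part on WT replicate 3, without which the log2 fold change was −0.35 (edgeR adjusted p = 0.00984). The call was lost without *Aif1*-/- replicate 1 (adjusted p = 0.0937) and without *Aif1*-/- replicate 2 (adjusted p = 0.0796), over a range of adjusted p of 0.00148 to 0.0937 in the 14 alternatives.

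*Sema4a* (ENSMUSG00000028064, chromosome 3, 88435959 to 88461182), which encodes a class 4 semaphorin that costimulates T cells, was low. Its normalized counts were 178, 173 and 170 in *Aif1*-/- libraries, against 153, 154 and 143 in WT libraries. Although the genotypes did not overlap, the log2 fold change of 0.21 (95% interval −0.09 to 0.52) did not pass the test (edgeR adjusted p = 0.355). *Sema7a* (ENSMUSG00000038264, chromosome 9, 57940112 to 57962865), the lipid-anchored semaphorin that binds plexin C1 and β1 integrins, was not detectable at this depth in *Aif1*-/- BMMs. It had 0 raw counts in each *Aif1*-/- library, which allows a level of up to 0.0484 CPM (library-scaled counts) over the group, and 0, 0 and 4 raw counts in WT libraries. It did not pass the filter and was not tested.

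*Plxna1* (ENSMUSG00000030084, chromosome 6, 89316314 to 89362620) encodes a receptor of class 3 and class 6 semaphorins that associates with neuropilins and, in myeloid cells, with the Trem2 and Tyrobp (DAP12) complex. Its normalized counts were 20019, 20719 and 20062 in *Aif1*-/- libraries, against 31350, 30569 and 38445 in WT libraries. The genotypes were well separated, and WT replicate 3 was again the highest library. The mean was 20266 ± 392 in *Aif1*-/- and 33455 ± 4339 in WT BMMs (SD, n = 3 each), with a log2 fold change of −0.72 (standard error 0.09, edgeR adjusted p = 0.00025), a ratio of 0.606. Without WT replicate 3 the log2 fold change was −0.61 (adjusted p = 1.6e-06), and *Plxna1* was called as lower in all 14 alternatives. On the opposite strand, *Gm26811* and *Gm44207* overlap 10.7% of its exon length, and their raw counts were 150 to 348 in *Aif1*-/- and 269 to 868 in WT libraries, far below those of *Plxna1*.

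*Plxnc1* (ENSMUSG00000074785, chromosome 10, 94790866 to 94944835), which encodes the plexin that serves as the receptor of Sema7a, was higher. It had normalized counts of 8204, 8577 and 8156 in *Aif1*-/- libraries, against 6624, 6430 and 6754 in WT libraries. The lowest *Aif1*-/- library lay above the highest WT library, and WT replicate 3 did not stand apart for this gene. The mean was 8312 ± 230.4 in *Aif1*-/- and 6603 ± 163 in WT BMMs (SD, n = 3 each), with a log2 fold change of 0.33 (standard error 0.06, edgeR adjusted p = 0.00319), or 1.26-fold, with a call in all 14 alternatives.

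*Plxnd1* (ENSMUSG00000030123, chromosome 6, 115954811 to 115995005) encodes a receptor of Sema3e and of class 4 semaphorins that is best known from blood vessels. Its normalized counts were 4062, 4181 and 3992 in *Aif1*-/- libraries, against 5194, 5011 and 6995 in WT libraries. The mean was 4078 ± 95.2 in *Aif1*-/- and 5733 ± 1096 in WT BMMs (SD, n = 3 each), with a log2 fold change of −0.49 (standard error 0.12, edgeR adjusted p = 0.0131). The genotypes did not overlap, but the size of the difference rested in part on WT replicate 3, without which the log2 fold change was −0.32 (adjusted p = 0.000414). The call was lost without *Aif1*-/- replicate 1 (adjusted p = 0.0613), replicate 2 (0.0536) or replicate 3 (0.0677).

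*Plxnb2* (ENSMUSG00000036606, chromosome 15, 89155549 to 89180788), which encodes a receptor of class 4 semaphorins, had normalized counts of 14896, 15310 and 15352 in *Aif1*-/- libraries, against 14038, 13581 and 17839 in WT libraries. The *Aif1*-/- libraries lay within the WT range. The log2 fold change was 0.00 (95% interval −0.22 to 0.22, edgeR adjusted p = 0.989), and without WT replicate 3 it was 0.14.

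The neuropilins were among the most abundant members and did not pass the test. *Nrp1* (ENSMUSG00000025810, chromosome 8, 128358604 to 128503363), a coreceptor of Sema3a and VEGF-A, had normalized counts of 18954, 19098 and 18355 in *Aif1*-/- libraries, against 20486, 19733 and 20434 in WT libraries. Each *Aif1*-/- library was below each WT library, by a log2 fold change of −0.10 (95% interval −0.24 to 0.03, edgeR adjusted p = 0.294). *Nrp2* (ENSMUSG00000025969, chromosome 1, 62703285 to 62818695), a coreceptor of Sema3f and VEGF-C that macrophages also modify with polysialic acid, had normalized counts of 27745, 26815 and 27933 in *Aif1*-/- libraries, against 27039, 26563 and 26926 in WT libraries. The genotypes overlapped and the log2 fold change was 0.03 (95% interval −0.10 to 0.17, edgeR adjusted p = 0.769).

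To compare genes with each other, normalized counts were divided by the length of the annotated exons of each gene in kilobases. On this scale the level of *Nrp2* in *Aif1*-/- BMMs was 2322 ± 50.6 and that of *Plxna1* 2238 ± 43.3 (SD, n = 3), and their libraries overlapped. *Plxnb2* (1967 ± 32.6) and *Nrp1* (1922 ± 40.3) followed and also overlapped, and then came *Sema4d* (1789 ± 29.8), *Plxnc1* (996 ± 27.6), *Plxnd1* (559 ± 13.04), *Sema4b* (88.9 ± 5.70), *Sema4a* (32.1 ± 0.712) and *Sema7a* (0), each below every library of the gene before it. In WT BMMs *Plxna1* led with 3695 ± 479 per kilobase, followed by *Nrp2* (2267 ± 21.0), which lay above every *Nrp1* library (2066 ± 43.0). The libraries of *Plxnb2* (1963 ± 303) spread over the levels of both neuropilins. *Sema4d* (1199 ± 113) came next, then *Plxnc1* (791 ± 19.6) and *Plxnd1* (785 ± 150), whose libraries overlapped, and then *Sema4b* (124 ± 18.0), *Sema4a* (27.7 ± 1.12) and *Sema7a* (0.341 ± 0.591). The order depended on the length used. With the longest annotated transcript in place of all exons, *Nrp1* led in *Aif1*-/- (5158 per kilobase) and in WT BMMs (5547), and *Sema4d* was at rank 3 in *Aif1*-/- (3065) and rank 5 in WT BMMs (2054).

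The make-up of each class within a library does not depend on how libraries are scaled to each other, but the sum over a class does. Summed over the members of the class, the level per kilobase of the semaphorins was 1878, 1940 and 1912 in *Aif1*-/- libraries. It was 1378, 1213 and 1463 in WT libraries, a ratio of the means of 1.41. For the plexins it was 5680, 5871 and 5728 in *Aif1*-/- and 6786, 6592 and 8324 in WT libraries, a ratio of 0.796. Thus the sum of the semaphorin members was higher in every *Aif1*-/- library than in any WT library, and that of the plexin members lower. For each, p = 0.1 by a two-sided exact permutation test, the smallest that 3 libraries against 3 allow. The neuropilin sum was 4244 ± 32.8 in *Aif1*-/- and 4333 ± 63.8 in WT BMMs (SD, n = 3 each, exact permutation test, p = 0.2). Single genes made up most of both differences and the classes did not shift as a whole. The mean level of *Sema4d* was 1789 in *Aif1*-/- and 1199 in WT BMMs, and that of *Plxna1* 2238 and 3695. *Sema4b* was lower and *Plxnc1* higher, against the direction of their class sums.

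Among the plexins, *Plxna1* made up 38.9%, 39.0% and 38.7% of the summed level in *Aif1*-/- libraries, against 51.0%, 51.2% and 51.0% in WT libraries. WT replicate 3, which had the highest normalized count of *Plxna1*, had a share like that of the other WT libraries. The share of *Plxnb2*, whose count did not pass the test, was 34.2% ± 0.495 in *Aif1*-/- and 27.1% ± 0.590 in WT BMMs (SD, n = 3 each), that of *Plxnc1* 17.3% ± 0.222 and 11.03% ± 1.14, and that of *Plxnd1* 9.70% ± 0.133 and 10.8% ± 0.614. Among the 4 semaphorin members, *Sema4d* held 93.7% ± 0.250 of the sum in *Aif1*-/- and 88.7% ± 0.733 in WT BMMs, and *Sema4b* 4.65% ± 0.281 and 9.18% ± 0.768. *Nrp2* held 54.7% ± 0.998 of the neuropilin sum in *Aif1*-/- and 52.3% ± 0.296 in WT BMMs. For each of these shares the genotypes did not overlap (exact permutation test, two-sided p = 0.1, adjusted p = 0.111 over the 10 shares), and no such test could pass 0.05 at this sample size. The shares of a class are parts of a whole, so they are not separate results. Those of *Nrp1* and *Nrp2* mirror each other, and a lower share of *Plxna1* goes with a higher sum of the other plexin shares. The shares are of the members alone. Over all 20 semaphorin genes examined, *Sema4d* held 71.7% ± 0.613 in *Aif1*-/- and 65.7% ± 2.13 in WT BMMs, *Sema4c* 14.6% ± 0.222 and 10.1% ± 0.873, *Sema6b* 6.18% ± 0.336 and 7.40% ± 0.904, *Sema4b* 3.56% ± 0.194 and 6.79% ± 0.518, and *Sema3c* 1.57% ± 0.0606 and 7.14% ± 1.09 (SD, n = 3 each). Thus *Sema4c* and *Sema6b*, which are not members, had mean levels per kilobase above that of *Sema4b* in both genotypes. In WT BMMs, however, the libraries of *Sema6b* (116 to 161 per kilobase) overlapped those of *Sema4b* (112 to 145). With the longest annotated transcript as gene length, the WT mean of *Sema6b* lay below that of *Sema4b*. Over all 9 plexin genes, *Plxna1* held 36.5% ± 0.178 in *Aif1*-/- and 47.9% ± 0.324 in WT BMMs.

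**Figure D2:**
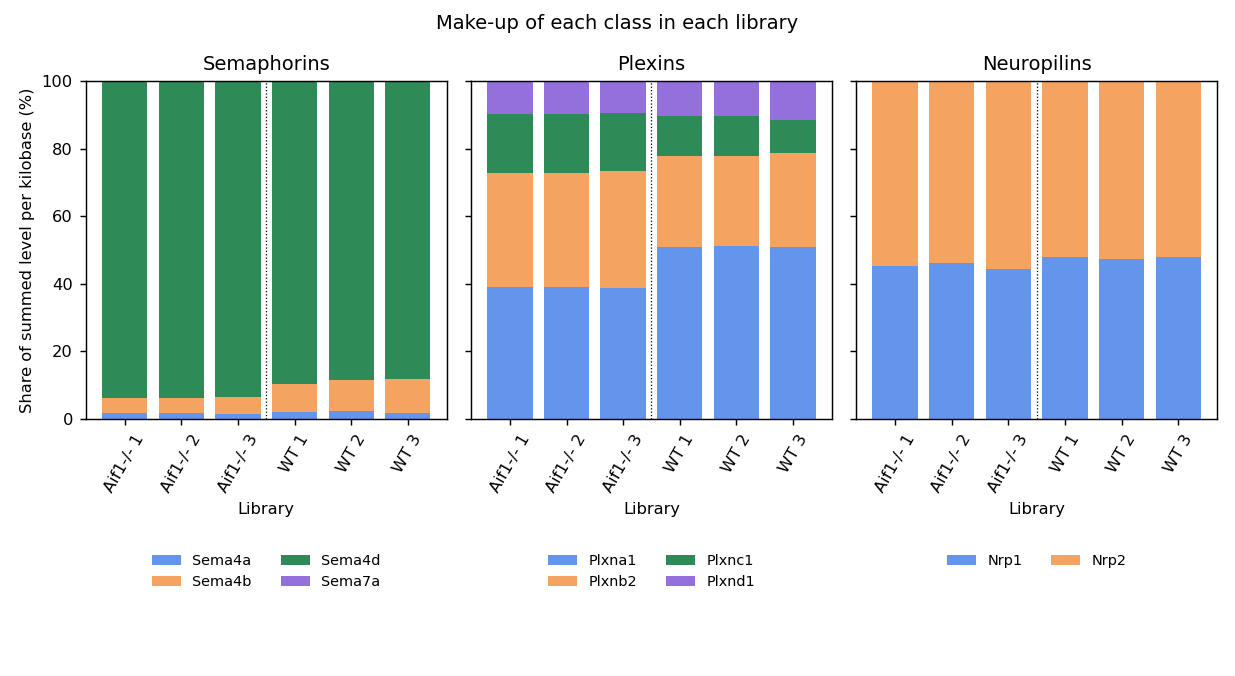
Share of each member in the summed level per kilobase of its class (vertical axis, percent) in each library (horizontal axis, *Aif1*-/- libraries left of the dotted line and WT libraries right of it), with genes stacked from the bottom in the order of the legend. The *Plxna1* share is 38.7% to 39.0% in *Aif1*-/- and 51.0% to 51.2% in WT libraries.

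Another 21 semaphorin and plexin genes were examined, of which 11 passed the filter, 1 was higher and 3 were lower in *Aif1*-/- BMMs, against 8.04% higher and 10.5% lower of all genes tested. The higher gene was *Sema4c*, a class 4 ligand of plexin B2, which had 1621, 1677 and 1712 normalized counts in *Aif1*-/- libraries, against 769, 848 and 917 in WT libraries (log2 fold change 0.98, standard error 0.08, edgeR adjusted p = 1.45e-05). On the opposite strand of *Sema4c*, *D430040D24Rik* overlaps 7.27% of its exon length and had no more than 81 raw counts in any library. *Sema3c*, a secreted ligand of neuropilin complexes, was lower, with raw counts of 322, 205 and 212 in *Aif1*-/- and 976, 1128 and 983 in WT libraries (log2 fold change −1.72, standard error 0.10, edgeR adjusted p = 1.07e-06). The other genes that fell encode A-type plexins, as *Plxna1* does. *Plxna3* had a log2 fold change of −1.14 and *Plxna4*, a receptor for Sema3a and Sema6 signals, had −0.75. Their standard errors were 0.18 and 0.08 and their edgeR adjusted p 0.00114 and 7.19e-05. Antisense genes overlap 0.78% of the exon length of *Plxna4*. *Plxna2*, the remaining A-type plexin, had −0.16 and did not pass the test (adjusted p = 0.103), although it did without WT replicate 3 (adjusted p = 0.0241) and with the share of reads matched to no gene as a covariate (0.00897).

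The other 6 tested family genes had wide intervals or small differences. *Sema6b*, a transmembrane ligand of A-type plexins, had 0.19 on the log2 scale (edgeR adjusted p = 0.392, and 0.0208 without WT replicate 3), *Sema3f*, the ligand of Nrp2, 0.26 and *Sema3e*, the ligand of plexin D1, 0.57. *Plxnb3* had a log2 fold change of −0.12, and *Sema4g* and *Sema6c*, each with no more than 20 raw counts in any library, had −0.02 and 0.14. The 10 genes that did not pass the filter had at most 22 raw counts in any library. Among them, *Sema3d*, *Sema3g* and *Sema5b* had 0 counts in all libraries. *Plxnb1*, the high-affinity receptor of Sema4d, had raw counts of 3, 0 and 0 in *Aif1*-/- and 4, 15 and 3 in WT libraries, and *Sema3a*, *Sema3b*, *Sema4f*, *Sema5a*, *Sema6a* and *Sema6d* made up the rest.

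**Figure D3:**
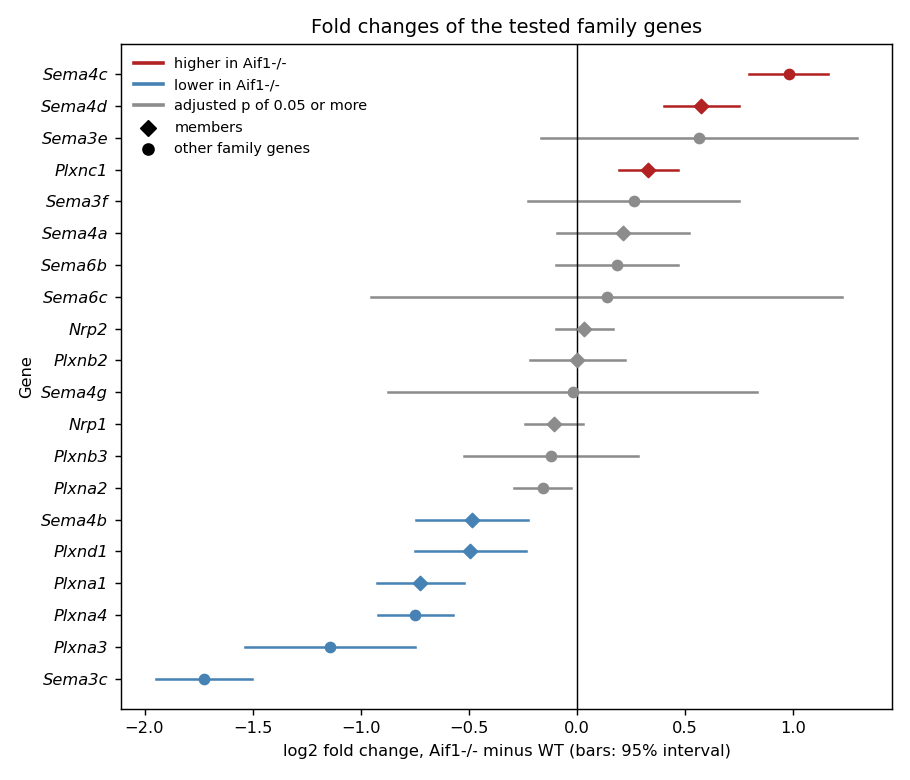
Log2 fold change (horizontal axis, *Aif1*-/- minus WT, with 95% intervals as lines) of the 20 tested genes of the family (vertical axis), with diamonds for members and circles for other family genes. *Sema4c* (0.98) and *Sema4d* (0.58) are at the top and *Sema3c* (−1.72) at the bottom, with A-type plexins above it.

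Genes whose proteins work with the family moved in both directions. Of 18 partner receptors and coreceptors, 11 were tested, of which 5 were higher and 2 lower in *Aif1*-/- BMMs. Over all genes tested 8.04% were higher and 10.5% lower, and these shares stand beside the counts of the ligand and protease lists below as well. *Cd72*, which encodes a Sema4d receptor of lymphoid and myeloid cells, had raw counts of 3497, 2322 and 2276 in *Aif1*-/- and 1144, 1414 and 1452 in WT libraries (log2 fold change 1.36, standard error 0.07, edgeR adjusted p = 3.03e-07). The value of *Cd72* is uncertain as far as strands are not separated, since *Tesk1* on the opposite strand overlaps 41.6% of its exon length, with 987, 694 and 650 raw counts in *Aif1*-/- and 895, 1068 and 1637 in WT libraries. The other gene with a wide gap was *Flt4*, the VEGF-C receptor VEGFR3 that pairs with Nrp2, at 247, 172 and 162 raw counts in *Aif1*-/- and 12, 17 and 7 in WT libraries (log2 fold change 4.34, standard error 0.26, edgeR adjusted p = 1.54e-06). The VEGF receptor gene *Flt1* (0.34) was also higher, whereas *Kdr*, which encodes VEGFR2, was lower (−0.49). *L1cam*, an adhesion molecule that binds Nrp1, was lower (−0.82).

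The signal-transducing chain *Tyrobp* was higher, with a log2 fold change of 0.39 (edgeR adjusted p = 0.0266), but the call was lost without each *Aif1*-/- replicate in turn and without WT replicate 1 (adjusted p of 0.0698 to 0.12). *Ptprj* (0.20, adjusted p = 0.0465) was the remaining higher gene, close to the threshold, and its result in the alternatives is not given here. *Trem2*, which joins plexin A1 in a receptor complex, had −0.09 on the log2 scale (adjusted p = 0.603), and *Itgb1*, the β1 integrin bound by Sema7a, had 0.01 (adjusted p = 0.921). *Met*, *Mst1r* and *Erbb2*, the receptor kinases that associate with B-type plexins, did not pass the filter and were not tested. *Met* had 16, 7 and 23 raw counts in *Aif1*-/- and 1, 6 and 0 in WT libraries. *Erbb2* had 9, 3 and 3 against 3, 1 and 1, and *Mst1r* 0, 0 and 0 against 0, 3 and 6.

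Among 7 other ligands of neuropilins 4 were tested. *Vegfb* was lower, with raw counts of 799, 550 and 566 in *Aif1*-/- and 1119, 1266 and 1457 in WT libraries (log2 fold change −0.65, standard error 0.08, edgeR adjusted p = 0.000264). *Tgfb1*, *Hgf* and *Vegfa* did not pass the test, with log2 fold changes of −0.28, −0.63 and −0.26. *Tgfb1* was called as lower in 3 of the 14 alternatives, with no filter (adjusted p = 0.043), with the share of reads matched to no gene as a covariate (0.00695) and without WT replicate 2 (0.0284), while without WT replicate 3 its log2 fold change was −0.12 (0.102). *Vegfd*, a ligand of VEGFR3, did not pass the filter: it had 44 raw counts over the *Aif1*-/- libraries and 0 over the WT libraries, so it was at least 18.6-fold higher when the WT group was set to a floor of 3 counts, a bound that covers counting error only. Of 8 proteases that shed or process semaphorins, 5 were tested and 2 were higher, *Adam10* (0.38, edgeR adjusted p = 0.00112) and the proprotein convertase *Furin* (0.40, adjusted p = 0.0441). The *Furin* call was lost without each *Aif1*-/- replicate in turn and without WT replicate 1 or 2. *Adam17* (0.17), *Pcsk7* (−0.12) and *Bace1* (−0.18) did not pass. *Adam17* was called as higher in 3 of the 14 alternatives, with the stricter filter (adjusted p = 0.0459), with the covariate (0.00524) and without WT replicate 3 (0.0117). Genes on the opposite strand overlap 32.5% of the exon length of *Bace1*, 10.1% of *Pcsk7*, 4.35% of *Adam17* and 1.29% of *Furin*.

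Of 44 genes of signalling below plexins, 39 were tested, of which 3 were higher, 8 were lower and 28 did not pass the test. Among all genes tested the shares were 8.04% higher and 10.5% lower. The largest differences among them were *Tiam1*, a Rac exchange factor, with 11, 3 and 10 raw counts in *Aif1*-/- and 213, 289 and 244 in WT libraries (log2 fold change −4.60), *Ptk2*, which encodes focal adhesion kinase (−1.77), and *Arhgef12*, which encodes LARG, an exchange factor bound by B-type plexins (−1.51). Their standard errors were 0.28, 0.08 and 0.07 and their edgeR adjusted p 1.68e-06, 1.48e-07 and 3.59e-07. *Rnd3* (−0.90) and *Rnd2* (−0.91), members of the Rnd GTPase family that bind plexins, and *Limk2*, a cofilin kinase (−0.72), were lower, as were *Fyn* and *Cdk5* at smaller differences (−0.31 and −0.37). The call of *Cdk5* was close to the threshold (edgeR adjusted p = 0.0465), and its result in the alternatives is not given here. *Rnd1*, the remaining Rnd gene, had −0.04 and did not pass the test (edgeR adjusted p = 0.908). *Mical2*, a flavoprotein that oxidizes actin, was higher (0.48), as were *Rap1b* (0.33), a substrate of the plexin GTPase-activating domain, and *Rasa1* (0.31). *Arhgef11*, the close relative of *Arhgef12*, had 0.00 on the log2 scale (edgeR adjusted p = 0.999), and *Rac1* (0.09), *Rhoa* (0.09) and *Cfl1*, which encodes cofilin (0.08), did not pass. Several of these genes overlap others on the opposite strand and are uncertain to that extent. *Vat1* overlaps 11.4% of the exon length of *Rnd2* and had far more raw counts than it, 5430 to 7956 in *Aif1*-/- and 10906 to 16275 in WT libraries, while *Rnd2* had 63 to 109 in *Aif1*-/- and 161 to 214 in WT libraries. The overlap was 8.88% for *Arhgef12*, 51.4% for *Rac1*, 12.5% for *Arhgef11*, 16.5% for *Cfl1*, 4.75% for *Rhoa* and 0.164% for *Rasa1*. The gene opposite *Arhgef12*, *Gm5831*, was not among the genes counted.

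**Figure D4:**
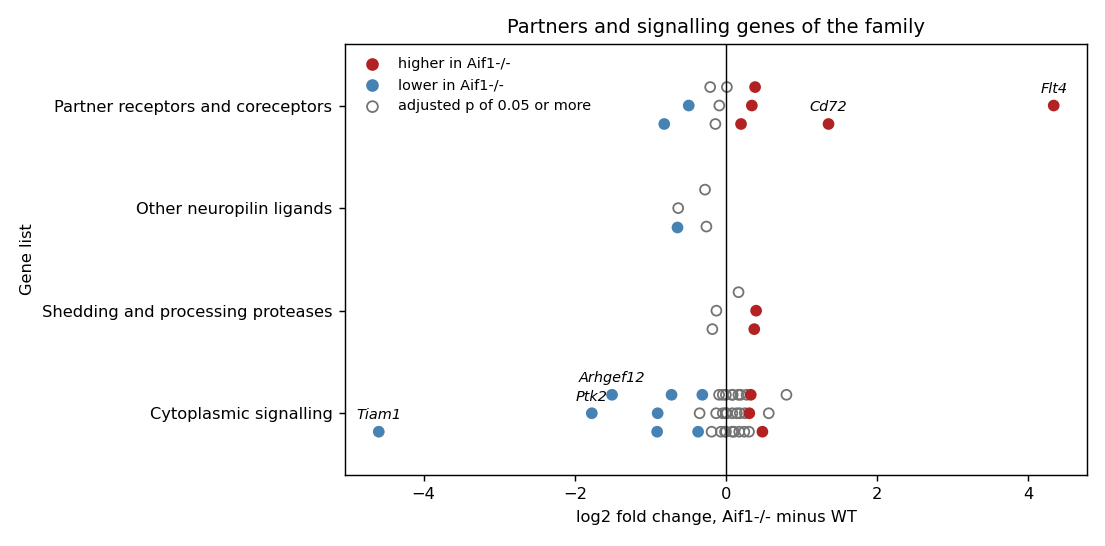
Log2 fold change (horizontal axis, *Aif1*-/- minus WT) of each tested gene in 4 lists (vertical axis) of partner receptors, other neuropilin ligands, proteases and cytoplasmic signalling, filled where the adjusted p was under 0.05 and open otherwise. *Flt4* (4.34) and *Tiam1* (−4.60) are farthest from 0, and most signalling genes lie near 0.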

How the data were processed

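RNA-seq of 3 *Aif1*-/- and 3 WT libraries used 200 ng of total RNA depleted of ribosomal RNA. According to the submitters' processing notes and the methods, the authors used Trim Galore 0.5 for trimming, TopHat2 2.0.13 for alignment to GRCm38 and HTSeq 0.6.1p1 for counting by Ensembl gene. They deposited raw counts, not normalized, of 47729 genes. Summary rows that name no gene stayed out of library sizes and tests; reads matched to no gene were 25.5% to 40.4% and ambiguous reads 4.55% to 7.15% of the counted reads. Reads were kept at 1 location each, so near-identical genes can gain or lose reads. The methods name a stranded library kit and default HTSeq settings, which use strand. Which strand these libraries keep is not given in the sources used here. Genes that overlap on opposite strands are therefore given as uncertain, with the share of exon length that overlaps.

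Counts were tested with edgeR 4.0.16 (R 4.3.3, limma 3.58.1): quasi-likelihood test on genotype, TMM normalization, default filter by expression (17406 genes), Benjamini-Hochberg adjustment over these genes and a threshold of 0.05. The standard error is the log2 fold change over the square root of F. Normalized counts are scaled to the mean library, and 95% intervals are of the log2 fold change. The authors used DESeq2, which was an alternative here (DESeq2 1.42.0), with RLE size factors, limma-voom, no filter, at least 50 counts in 3 libraries, the replicate number as a block, the share of reads matched to no gene as a covariate, thinned counts and each library left out. Exact permutation tests were two-sided. A floor of 3 counts was used where a group had 0. Floors cover counting error only, whereas the 95% intervals include the spread between libraries. Scripts were tested on simulated data. Gene lengths and coordinates came from GENCODE M21 (GRCm38), and promoters from RefSeq (GRCm38.p6).

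The members and the lists of related genes and markers were chosen with earlier results of these data known. Named are all members, every other family gene (those not tested with their counts), and of each list up to 6 genes with the smallest adjusted p and the largest called change in each direction. Outside that rule, *Ptprj*, *Trem2*, *Itgb1*, *Met*, *Mst1r*, *Erbb2*, *Vegfd*, *Rnd2*, *Fyn*, *Cdk5*, *Rap1b*, *Rasa1*, *Arhgef11*, *Rac1*, *Rnd1*, *Rhoa* and *Cfl1*, and the individual cell type markers, were named after their values were seen.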

Additional observations from a re-analysis of the deposited data

How the results depend on the processing

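In the 14 alternatives *Sema4d*, *Plxna1* and *Plxnc1* kept their direction and their call, while *Sema4b* and *Plxnd1* kept their direction and lost the call only without an *Aif1*-/- library. The number of members called was 3 to 5 when each library was left out (3 without *Aif1*-/- replicate 1 or 2) and 5 in all other alternatives. The number of genes called was 3231, against 2040 to 4889 with a library left out (2040, 2113 and 2140 without *Aif1*-/- replicates 1, 2 and 3, and 4889 without WT replicate 3) and 5517 with the share of reads matched to no gene as a covariate. The correlations of the deviations of libraries with the same replicate number in both genotypes were 0.06, −0.075 and −0.086. For unlike numbers they were −0.074 to 0.132. With 3 libraries a genotype these values show no sign of pairing but cannot settle whether libraries were prepared in pairs. With the replicate number as a block 2872 genes and 5 members were called. Log2 fold changes near 0 changed sign: *Plxnb2* had −0.000748, −0.0496 and −0.0659 without *Aif1*-/- replicate 3, WT replicate 1 and WT replicate 2, and up to 0.143 with a library left out. *Sema4g* had 0.13, 0.0687 and 0.0727 without *Aif1*-/- replicate 1, *Aif1*-/- replicate 3 and WT replicate 2, and 0.132 with thinned counts, with a lowest value of −0.245 when a library was left out. *Sema6c* had −0.115 and −0.0735 without *Aif1*-/- replicate 3 and WT replicate 3, and −0.0549 with thinned counts, with a highest value of 0.467 when a library was left out. The difference in class share (percentage points, *Aif1*-/- minus WT) was −3.87 for *Sema4b* and 4.28 for *Sema4d* with the longest transcript as gene length, and −3.23 for *Sema4b*, 6.02 for *Sema4d* and −11.4 for *Plxna1* over all genes of a class, against −4.53, 4.94 and −12.2. The cause was not tested. Depth limits *Sema7a*, *Plxnb1* and the other genes with at most 22 counts, and at 3 libraries a genotype an exact test of a single value cannot pass 0.05.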
